A study of Mus musculus with 6 samples.

Results

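The 7 long non-coding RNAs, Malat1, Neat1, Gas5, Snhg1, Snhg12, Dleu2 and AI506816, were followed through the 6 RNA-seq libraries of the series. They were taken by symbol from the 48397 gene symbols of the count table, and all 7 were among the 12312 genes with enough reads to be tested. They were chosen by their read counts in these same libraries: 6 were selected on their level, and AI506816 because its reads were nearly all in one genotype. The genotype difference of AI506816 is therefore given as a description, without a test.

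The libraries were made from stage 0 invariant natural killer T (iNKT) cells, the earliest iNKT progenitors after positive selection, sorted from thymus as PBS57-CD1d tetramer+, CD44-, CD24+, CD69+, CD4lo/- and CD8-. In all, 3 libraries came from BALB/c mice, which are wild type, and 3 from SKG mice, which carry a hypomorphic mutation of Zap70, the kinase that passes on the T cell receptor signal, on the BALB/c background. Every mouse was 8 to 10 weeks old, the labels give no treatment, and each library held about 1000 cells from the pooled thymi of 3 mice, so that the spread between libraries is a spread between pools and not between single animals. The comparison asks how the RNA content of these progenitors differs between SKG mice, where T cell receptor signaling is weaker, and BALB/c mice. The paper bought its BALB/c mice and does not describe the SKG mice as their littermates. An effect of the mutation and a difference between mouse lines therefore cannot be told apart.

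Long non-coding RNAs are transcripts without a protein product. Malat1 and Neat1 stay in the nucleus, where Malat1 gathers in nuclear speckles with splicing factors and Neat1 forms the scaffold of paraspeckles. Gas5, Snhg1 and Snhg12 are host genes of small nucleolar RNAs (snoRNAs): the snoRNAs are cut from the introns and guide chemical modification of ribosomal RNA, while the spliced host transcripts of such genes carry short reading frames and are known substrates of nonsense-mediated decay. Dleu2 is the host transcript of the microRNAs miR-15a and miR-16-1, which restrain Bcl2 and cyclins. AI506816 is an annotated non-coding transcript whose function is not described in the sources used here.

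The total of counted reads was 37176544 to 43115544 per library, and 10835 to 14791 genes had at least 10 reads. Mitochondrial genes took 0.367% to 0.991% of the reads. All 10 listed iNKT and T cell markers had reads in every library, and their summed level was 6729 to 8747 CPM (the count scaled to a common library size) in BALB/c and 6154 to 7161 CPM in SKG. Markers of other cells were lower and overlapped between genotypes. Double-positive thymocyte markers summed to 45.1 to 421 CPM in BALB/c and 72.0 to 168 CPM in SKG, B cell markers to 6.79 to 94.3 and 4.59 to 43.7 CPM, and myeloid markers to 97.8 to 226 and 75.2 to 269 CPM. Erythroid markers summed to 0.0266 to 69.3 CPM in BALB/c and 0.0506 to 0.672 CPM in SKG, with Alas2 at 0 in every library. Thymic epithelial markers summed to 27.8 to 42.3 and 9.84 to 84.5 CPM, nearly all of it Epcam, with Krt5 and Psmb11 at 0 in every library. BALB/c replicate 1 had the highest double-positive, B cell and erythroid sums and SKG replicate 3 the highest myeloid and thymic epithelial sums, and their part in the results was not tested. Xist had 4838 to 11401 reads in every library.

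The snoRNA hosts are shown first by their promoters, because they share a feature that the choice of genes did not use. The following 100-base stretches run from 50 bases before to 50 bases after the RefSeq start (GRCm38.p6), read on the strand of the gene, and capitals mark the letters TATA where they lie 40 to 20 bases before the start. The stretch of AI506816 is shown beside them as the gene whose reads differed most between the genotypes among the 7.
Gas5, chr1:161035116-161035215, plus strand: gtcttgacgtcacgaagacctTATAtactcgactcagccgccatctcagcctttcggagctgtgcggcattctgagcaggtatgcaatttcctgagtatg
Snhg1, chr19:8723437-8723536, plus strand: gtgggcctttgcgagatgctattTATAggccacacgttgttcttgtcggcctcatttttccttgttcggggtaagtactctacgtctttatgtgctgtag
Snhg12, chr4:132308628-132308727, plus strand: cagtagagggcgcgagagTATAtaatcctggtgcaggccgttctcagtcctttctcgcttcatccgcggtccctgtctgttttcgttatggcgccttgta
AI506816, chr5:23712618-23712717, minus strand: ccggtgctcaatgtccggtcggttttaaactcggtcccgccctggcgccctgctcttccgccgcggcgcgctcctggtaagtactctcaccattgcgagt

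The letters TATA, which read the same on both strands, began 29 bases before the start of Gas5, 27 before that of Snhg1 and 32 before that of Snhg12. Gas5 has a second RefSeq start upstream, whose window did not hold the letters. They were absent from this stretch of the Malat1, Dleu2 and AI506816 promoters, and Neat1 had no entry. Thus 3 of the 6 genes with a window held TATA there, against 1723 of all 27025 genes with one (6.38%). The motif was chosen after the sequences were seen, and a match is a description of letters only.

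Dleu2 is shown by the 5′ arms of the microRNAs it hosts, because these are the products for which the gene is known. Capitals mark the seed, bases 2 to 8, and the bases are written as RNA.
miR-15a-5p, chr14:61632075-61632096, minus strand: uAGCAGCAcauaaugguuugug
miR-16-5p, chr14:61631936-61631957, minus strand: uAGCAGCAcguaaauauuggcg

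Both arms have the seed AGCAGCA, so that both can pair with the same seed matches in a target. The libraries held polyadenylated RNA, and the genes of these microRNAs had 0 reads in every library. The same was true of the snoRNA genes inside the hosts: GENCODE annotates 10 snoRNA genes within Gas5, 8 within Snhg1 and 5 within Snhg12, and the 8, 8 and 3 of them with a row of their own all had 0 reads. The small RNAs themselves were thus not measured. Because the snoRNA genes of Gas5, Snhg1 and Snhg12 also lie within annotated host exons, a read there may have been assigned to neither gene. AI506816 also holds 1 annotated snoRNA gene on its own strand, Mir3096, which lies outside its exons and had 0 reads.

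The 7 genes lie on 5 chromosomes of GRCm38. Malat1 (chr19:5795690-5802672) and Neat1 (chr19:5824708-5845478) are neighbors on the minus strand, 22036 bp apart. Snhg1 (chr19:8723475-8726443), Gas5 (chr1:161034422-161038539) and Snhg12 (chr4:132308623-132311024) are on the plus strand. Dleu2 (chr14:61602839-61682373) and AI506816 (chr5:23698296-23712667) are on the minus strand. No tested gene with a position in GENCODE M21 had exons overlapping those of the 7. The body of Gas5 overlaps that of Zbtb37, and the body of Dleu2 those of Trim13 and Gm27017, all on the opposite strand. Because the counting did not use strand, reads of antisense transcripts over the exons of these genes could not be told apart from their own.

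The 7 genes spanned a wide range of levels, and not all of them were abundant. Among 860 annotated long non-coding RNA genes tested, ordered by mean CPM over the libraries, Malat1 ranked 3, Gas5 8, Neat1 18, Snhg1 48, Dleu2 96, AI506816 111 and Snhg12 194. The rank of AI506816 rests on a mean over both genotypes and describes neither. Among all 12312 genes tested, Malat1 ranked 272, Gas5 2200 and Neat1 4273, whereas Snhg12 ranked 9274. In sum the 7 genes took 634 to 849 CPM per library, and Malat1 supplied 55.5% to 74.0% of their reads.

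**Figure D1:**
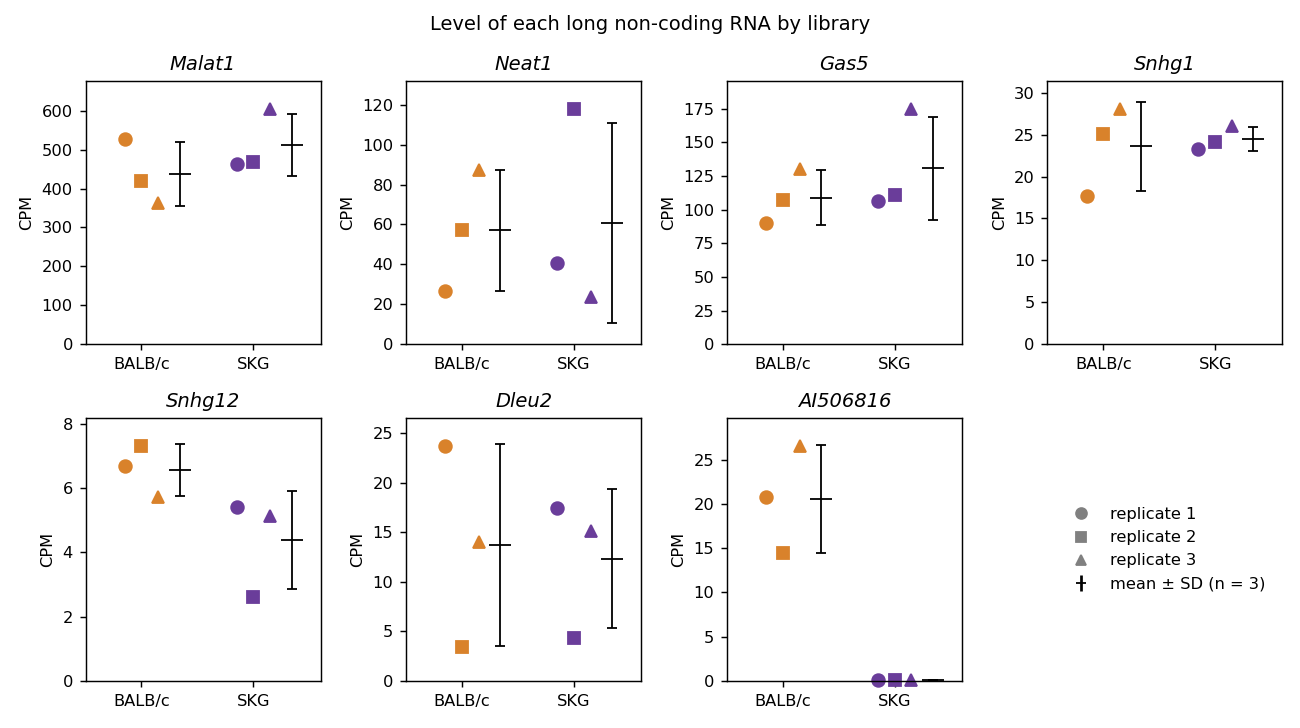
Level in CPM (y axis, linear and starting at 0, a separate range for each gene) of the 7 long non-coding RNAs in 3 BALB/c and 3 SKG libraries, each symbol being 1 library and the bars the mean ± SD (n = 3). The genotypes overlap for Malat1, Neat1, Gas5, Snhg1 and Dleu2, whereas for Snhg12 and AI506816 each SKG library is below each BALB/c library.

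To compare the genes with each other, levels were divided by the length of their merged exons and are given as CPM per kb. On this scale Malat1 was highest in both genotypes, at 62.6 ± 11.9 in BALB/c and 73.4 ± 11.4 in SKG (SD, n = 3), followed by Gas5 at 29.0 ± 5.40 and 34.7 ± 10.1 and by Snhg1 at 7.95 ± 1.79 and 8.24 ± 0.480. The libraries of these 3 genes did not overlap with those of the next gene in either genotype. Below them the order was less clear. In BALB/c, AI506816 (4.59 ± 1.36), Neat1 (2.74 ± 1.45) and Snhg12 (2.73 ± 0.334) overlapped in turn. Dleu2 was lowest at 1.21 ± 0.895, with every library below those of Snhg12 but overlapping with those of Neat1. In SKG, Neat1 (2.93 ± 2.41), Snhg12 (1.82 ± 0.637) and Dleu2 (1.09 ± 0.619) overlapped in turn, and AI506816 was lowest at 0.0192 ± 0.00849 CPM per kb.

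The merged exons of Snhg1 (2969 bp) and Snhg12 (2402 bp) span the whole gene, and those of Gas5 cover 3760 of 4118 bp. These lengths include the stretches that hold the snoRNAs. The levels per kb of the hosts, and their place relative to Malat1, therefore depend on the annotation. The order of the lower genes also depended on the length used. With the longest transcript in place of the merged exons, Dleu2 stood at 3.35 ± 2.48 CPM per kb in BALB/c, above Neat1, and the SKG libraries of Malat1 and Gas5 overlapped. Neat1 has a short and a long isoform, and a single level per length does not distinguish them. It was divided by 20771 bp under both lengths, so that its place does not allow for a shorter form. The libraries held polyadenylated RNA, so that levels of different genes also depend on how well each was captured, which was not tested.

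**Figure D2:**
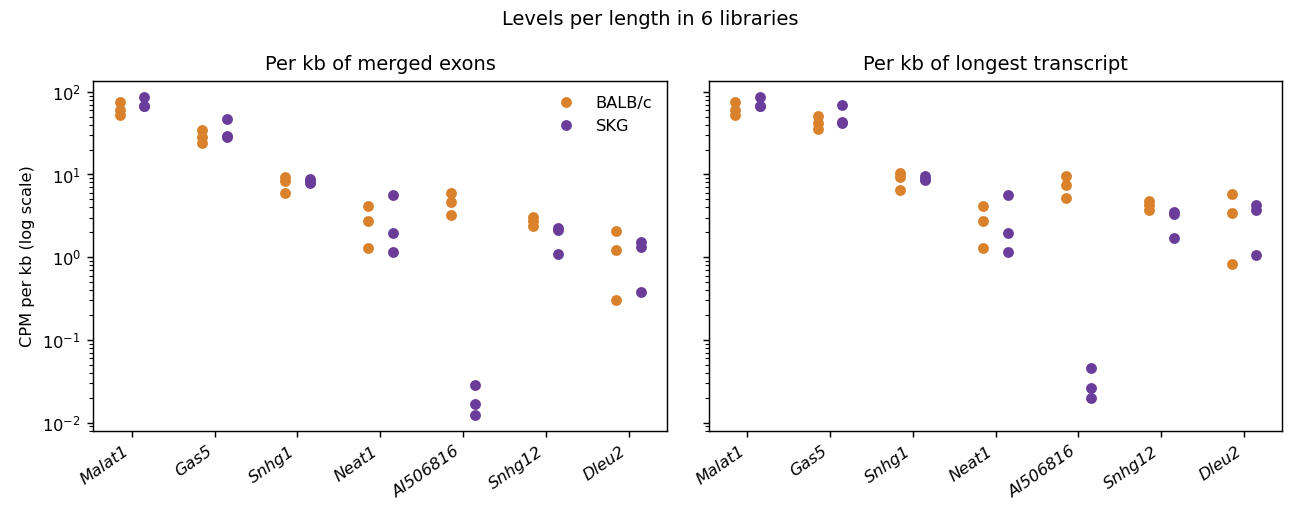
CPM per kb (log scale) of the 7 genes, with each point 1 library, orange for BALB/c and purple for SKG; lengths are those of merged exons on the left and of the longest transcript on the right, with the genes in the same order. Malat1, Gas5 and Snhg1 have the highest means under both lengths, and AI506816 in SKG lies at 0.0123 to 0.0287 per kb of merged exons.

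The nuclear scaffold RNAs were compared between the genotypes first. Malat1 had 527, 420 and 364 CPM in BALB/c replicates 1 to 3 and 463, 469 and 604 CPM in the SKG replicates. The highest library was SKG and the lowest BALB/c, but the genotypes overlapped. The means were 437 ± 82.8 CPM in BALB/c and 512 ± 79.5 CPM in SKG (SD, n = 3), a log2 fold change of 0.23 (95% interval -0.23 to 0.69) that did not pass the test (edgeR quasi-likelihood test, Benjamini-Hochberg adjusted p = 0.991). In bulk RNA of sorted cells, fewer cells of a type and less RNA per cell cannot be told apart.

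Neat1 had 26.8, 57.1 and 87.0 CPM in the BALB/c libraries and 40.8, 118 and 23.8 CPM in the SKG libraries. SKG held both the highest and the lowest library, and the 6 values differed by up to 4.94-fold. The means were 57.0 ± 30.1 and 60.8 ± 50.0 CPM, with a log2 fold change of 0.09 (95% interval -1.56 to 1.75; edgeR adjusted p = 0.999). The sign turned when SKG replicate 2 was left out (-0.81) or BALB/c replicate 1 (-0.23), so that these libraries gave no direction for Neat1.

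Although Malat1 and Neat1 are neighbors on one strand, their proportion differed widely between libraries of the same genotype. For each 100 Malat1 reads there were 5.09, 13.6 and 23.9 of Neat1 in BALB/c, and 8.80, 25.1 and 3.95 in SKG. In SKG replicate 3 the level of Malat1 was the highest of the 6 libraries and that of Neat1 the lowest.

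The snoRNA hosts came next. Gas5, named for its accumulation in growth-arrested cells, had 89.8, 107 and 130 CPM in BALB/c and 107, 111 and 175 CPM in SKG. The first and second SKG replicates lay within the BALB/c range, and SKG replicate 3 stood above it. The means were 109 ± 20.3 and 131 ± 38.2 CPM, a log2 fold change of 0.26 (95% interval -0.38 to 0.91; edgeR adjusted p = 0.991), which came to 0.01 without SKG replicate 3.

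Snhg1 had 17.7, 25.1 and 28.0 CPM in BALB/c and 23.3, 24.1 and 26.0 CPM in SKG. All 3 SKG libraries lay inside the BALB/c range. The means were 23.6 ± 5.31 and 24.5 ± 1.42 CPM, with a log2 fold change of 0.05 (95% interval -1.04 to 1.14; edgeR adjusted p = 0.999) that became -0.11 without BALB/c replicate 1. In proportion to Gas5, Snhg1 had 19.7, 23.5 and 21.5 reads per 100 in BALB/c, and 21.8, 21.8 and 14.9 in SKG, lowest in the library where Gas5 was highest.

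Snhg12 had 6.67, 7.31 and 5.71 CPM in BALB/c and 5.41, 2.62 and 5.12 CPM in SKG, which are 258 to 275 and 102 to 218 reads. Each SKG library was below each BALB/c library, with a narrow gap between 5.71 and 5.41 CPM. The means were 6.56 ± 0.802 and 4.38 ± 1.53 CPM and the log2 fold change -0.58, but its interval reached from -2.55 to 1.38 and the difference did not pass the test (edgeR adjusted p = 0.991). Of all genes tested, 7.12% had their lowest BALB/c library above their highest SKG library, and 13.9% did not overlap in one direction or the other. Snhg12 was thus 1 of 6, or 16.7%, of the genes other than AI506816 without overlap, near the share of all genes. Without SKG replicate 2 its log2 fold change was -0.31.

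Dleu2, the microRNA host, had 23.7, 3.42 and 13.99 CPM in BALB/c and 17.4, 4.32 and 15.2 CPM in SKG. One library of each genotype, replicate 2 in both, was far below the others, with 127 and 168 reads against 548 to 978. The means were 13.7 ± 10.1 and 12.3 ± 7.01 CPM and the log2 fold change -0.16 (95% interval -2.43 to 2.12; edgeR adjusted p = 0.999). With BALB/c replicate 1 left out it was 0.50, and with SKG replicate 2 left out 0.26.

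AI506816 had 20.7, 14.4 and 26.5 CPM in BALB/c and 0.0745, 0.129 and 0.0553 CPM in SKG. In reads these were 855, 534 and 1199 against 3, 5 and 2. Each BALB/c library held over 100 times the reads of any SKG library, and few reads remained in any SKG pool. The means were 20.6 ± 6.08 and 0.0861 ± 0.0380 CPM, with a log2 fold change of -7.85. The pooled reads, 2588 against 10, gave a level 242-fold higher in BALB/c, with an interval of 131 to 505 that covers counting error only. Leaving out any 1 library gave 205-fold to 321-fold. These are the values on which the gene was chosen.

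The nearest tested genes on either side of AI506816, among those with a position in GENCODE M21, did not show the same difference. Tested symbols without a position there could not be placed. Srpk2, a kinase of splicing factors 13679 bp away, held 5412, 1620 and 4903 BALB/c reads against 5377, 4270 and 5470 SKG reads, and its log2 fold change of 0.48 did not pass the test (edgeR adjusted p = 0.991). Pus7, a pseudouridine synthase 27981 bp away, held 4730, 4031 and 3029 reads against 3282, 2763 and 1853 (log2 fold change -0.51, edgeR adjusted p = 0.972). Both overlapped between the genotypes.

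Across the whole table the edgeR test called 0 of 12312 genes (0%) at a false discovery rate of 0.1 with a fold change of at least 1.5, so that 0 of the 6 genes other than AI506816 being called is the same as the background. Before adjustment, 671 genes had p below 0.05 by edgeR and 968 by limma-voom, which also called 0. None of the 6 genes was among the 671. DESeq2 with shrunken fold changes called 231 of 13862 genes with an adjusted p (1.67%), again with none of the 6 among them. Its calls held AI506816, which was chosen on this contrast.

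**Figure D3:**
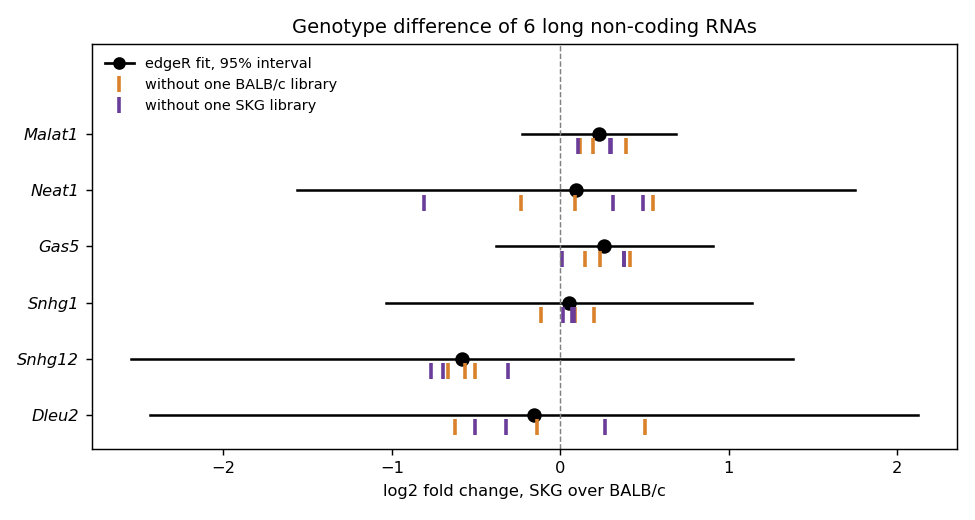
Log2 fold change of SKG over BALB/c (x axis) for 6 long non-coding RNAs; dots and lines are the edgeR estimate and its 95% interval, and ticks are the estimates without 1 BALB/c (orange) or 1 SKG (purple) library. Every interval includes 0, and the ticks lie on both sides of 0 for Neat1, Snhg1 and Dleu2.

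The interval was narrowest for Malat1 and wider for Neat1, Snhg12 and Dleu2, and the libraries of one genotype differed by more than counting error. For Dleu2 the coefficient of variation (SD over mean) was 74.0% in BALB/c and 57.0% in SKG, where counting error alone would give 4.16% and 4.60%. For Neat1 it was 52.8% and 82.3%, against 2.05% and 2.06% from counting. Malat1 varied by 18.95% and 15.5%, Gas5 by 18.6% and 29.2%, and Snhg1 by 22.5% and 5.82%. Set among all genes tested, the within-genotype variation of Neat1 was at percentile 69.5 and that of Dleu2 at 67.6, whereas Snhg1 was at 10.5 and Malat1 at 12.4. By the dispersion that edgeR estimated for each gene, the percentiles were 49.4 for Neat1, 64.0 for Dleu2, 44.4 for Snhg1 and 4.47 for Malat1, so that the place of Neat1 and Snhg1 among all genes depended on the measure. For Snhg12, the gene with the fewest reads of the 6, it was 12.2% and 34.9%, against 6.11% and 7.71% from counting.

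**Figure D4:**
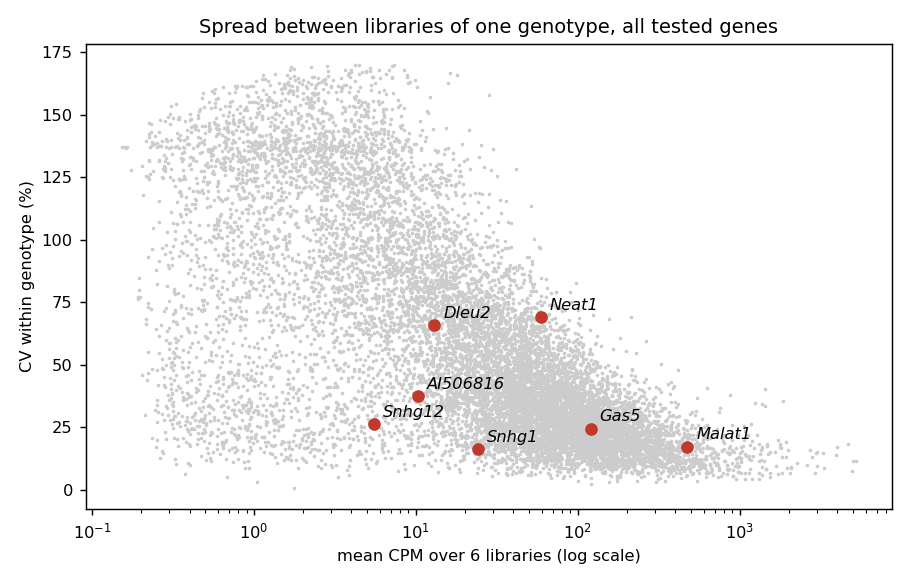
Coefficient of variation within a genotype (y axis, percent) against mean CPM over the 6 libraries (x axis, log scale) for all 12312 genes tested (grey). The 7 long non-coding RNAs are in red, and the y value is the root mean square over the genotypes. Neat1 lies at percentile 69.5 of all genes by this measure and Snhg1 at percentile 10.5.

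The genes that work with these RNAs were counted from lists. Of 17 other snoRNA host genes 10 were tested, and 0 passed the test. Of these 10, 0 were without overlap, against 13.9% of all genes tested. A log2 fold change above 0 was found for 5 (median -0.15, against -0.02 over all genes tested). The hosts with the highest levels were Snhg17, with 57.1 ± 11.9 CPM in BALB/c and 77.6 ± 30.6 in SKG (log2 fold change 0.44), and Snhg20, with 48.8 ± 5.64 and 68.5 ± 29.0 (0.49). Both were highest in SKG replicate 3, as was Gas5, and neither passed the test (edgeR adjusted p = 0.991 for each).

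The core proteins of the snoRNA particles stood lower in SKG in estimate but not past the test. Of 9 tested, 0 were called, 0 had a log2 fold change above 0, and the median was -0.39, against -0.02 over all genes tested. The particle proteins with the highest levels were Nop56 (441 ± 95.8 CPM in BALB/c, 381 ± 37.1 in SKG, log2 fold change -0.21) and Nop58 (220 ± 35.9 and 169 ± 22.6, -0.39). In 3 of the 9, named here after their values were seen, the BALB/c libraries all lay above the SKG ones, as in 7.12% of all genes tested: the methyltransferase Fbl (86.6 ± 6.54 and 58.2 ± 14.03 CPM), Gar1 (110 ± 6.29 and 70.0 ± 22.7 CPM) and Nhp2l1 (184 ± 81.8 and 93.3 ± 1.22 CPM).

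Paraspeckle proteins, the partners of Neat1, gave 0 calls among 12 tested, with 6 above 0 and a median of 0.00. Hnrnpk had 1761 ± 228 CPM in BALB/c and 1582 ± 45.0 in SKG, and Ewsr1 1141 ± 187 and 1240 ± 276. Only Pspc1, named after its values were seen, was without overlap among the 12 (8.33%), against 13.9% of all genes tested. Its level was 38.3 ± 5.98 CPM in BALB/c and 51.0 ± 3.80 in SKG (log2 fold change 0.41, edgeR adjusted p = 0.990). Nuclear speckle proteins, which surround Malat1, gave 0 calls among 10 tested, with 5 above 0 and a median of 0.00. Their highest members were Srrm2 (714 ± 133 and 701 ± 71.8 CPM) and Srsf3 (692 ± 34.3 and 680 ± 47.7 CPM). Only Pnn, also named after its values were seen, was without overlap among these 10 (10%), against the same 13.9%. Its level was 176 ± 27.5 CPM in BALB/c and 255 ± 42.4 in SKG (log2 fold change 0.54, edgeR adjusted p = 0.847).

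Factors of nonsense-mediated decay, which degrades spliced snoRNA host transcripts, gave 0 calls among 10 tested, with 5 above 0 and a median of -0.02. Smg6 had 166 ± 44.2 CPM in BALB/c and 133 ± 73.7 in SKG. Targets of miR-15 and miR-16 gave 0 calls among 7 tested, with 4 above 0 and a median of 0.08. Ccnd2, a cyclin, had 754 ± 186 and 799 ± 127 CPM. Bcl2, an inhibitor of apoptosis, had 634 ± 150 and 382 ± 141 CPM, a log2 fold change of -0.73 that did not pass the test (edgeR adjusted p = 0.947).

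Of 6 genes at the Dleu2 locus 3 were tested, and 0 were called. Trim13, a ubiquitin ligase that shares the locus on the opposite strand, held 333, 213 and 287 BALB/c reads against 641, 3 and 407 SKG reads. Spryd7 had 0, 173 and 338 reads against 149, 209 and 34. Trim13 was nearly absent from SKG replicate 2, where Dleu2 was also low, whereas Spryd7 had no read in BALB/c replicate 1, where Dleu2 was highest.

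**Figure D5:**
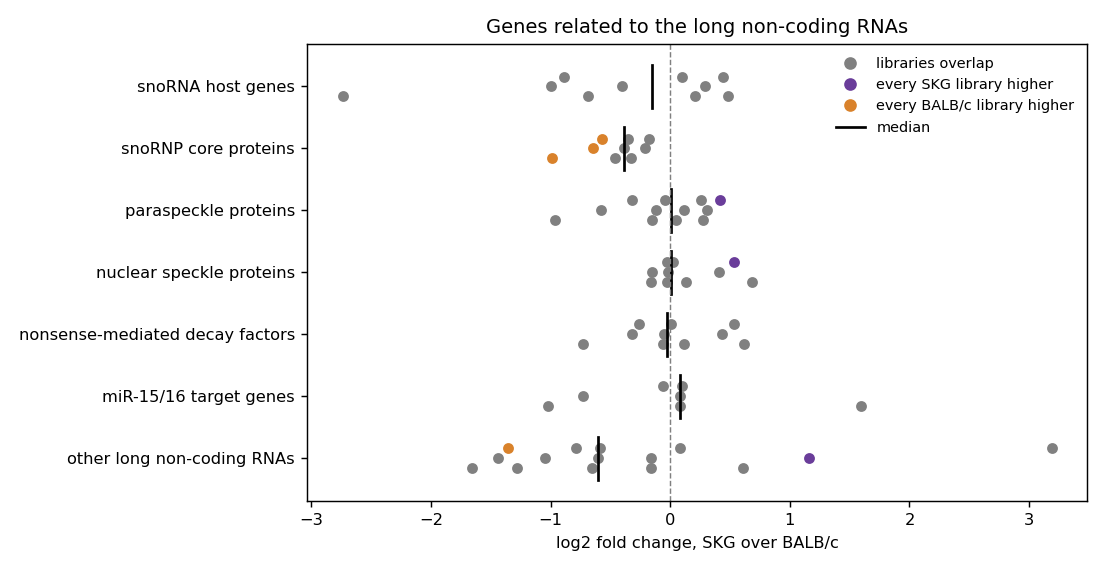
Log2 fold change of SKG over BALB/c (x axis) for the tested genes of 7 lists related to the long non-coding RNAs; each dot is 1 gene, colored where the libraries of the genotypes do not overlap, and the bar is the median. No gene passed the edgeR test, and all 9 snoRNA particle proteins lie below 0 (median -0.39).

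Of 27 listed symbols of other well-known long non-coding RNAs, 24 had a row in the count table and 15 had enough reads to be tested. Of these 15, 0 were called and 4 had a log2 fold change above 0. The median was -0.61, against -0.09 over the 860 long non-coding RNA genes tested. Tug1 had 115 ± 26.4 CPM in BALB/c and 103 ± 29.6 in SKG. The gene 1700020I14Rik, which makes the RNA also known as Cyrano, held 1860, 2988 and 2922 BALB/c reads against 4289, 4095 and 7754 SKG reads. Each SKG library was above each BALB/c library in CPM (63.4 ± 17.8 and 142 ± 62.7), but the log2 fold change of 1.16 did not pass the test over all genes (edgeR adjusted p = 0.830). Lncpint, a long non-coding RNA known from the p53 response, had 1425, 1092 and 941 reads against 588, 275 and 412, or 28.3 ± 6.93 and 11.0 ± 3.77 CPM. Each SKG library was lower, and the log2 fold change of -1.36 did not pass the test either (edgeR adjusted p = 0.921). DESeq2 without shrinkage, which called 370 of 14342 genes, called Lncpint (adjusted p = 0.0786). With shrunken fold changes DESeq2 did not call it. The 2 genes without overlap were 13.3% of the 15, against 11.6% of all long non-coding RNA genes tested.

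SKG replicate 3 held the lowest level of several of these RNAs. It was the lowest of the 6 libraries for 6 of the 15, against 20.2% of all long non-coding RNA genes and 21.5% of all genes tested. BALB/c replicate 1 was lowest for another 5 (33.3%), near its share of 34.1% of all long non-coding RNA genes and 26.2% of all genes tested. Named after their values were seen, Ftx had 1 read there, Firre 3 and Pvt1 4, where every other library had at least 288, 260 and 376. Neat1 was lowest in the same library, while Malat1 and Gas5 were highest. This library also had the fewest genes with at least 10 reads, 10835, and the highest sums of myeloid (269 CPM) and thymic epithelial (84.5 CPM) markers, and their part in these values was not tested.

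Among all genes tested, the gene most like each long non-coding RNA was sought by the Pearson correlation of log2 CPM over the 6 libraries. These are descriptions of few points that share their libraries. For Gas5 the gene with the highest correlation was Snhg17 (r = 0.992), another snoRNA host. For each 100 Gas5 reads there were 51.2, 52.1 and 53.5 of Snhg17 in BALB/c, and 53.9, 56.4 and 64.6 in SKG, each SKG value being above each BALB/c value. Snhg17 was picked for this likeness out of all genes tested, so that a steady proportion follows from the choice. Of Snhg20 there were 56.0, 39.9 and 41.2 in BALB/c, and 52.3, 43.4 and 58.2 in SKG.

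For the others the most similar genes were of other kinds. Malat1 was closest to Trbj1-5 (r = 0.984), a joining segment of the T cell receptor beta locus, and Neat1 to Rab4a (r = 0.987), a small GTPase of endosomes. Snhg12 was closest to the copper transporter gene Slc31a1 (r = 0.989). Snhg1 was closest to Gm26909 (r = 0.991), which had at most 23 reads in a library. Dleu2 was closest to Rab11fip4 (r = 0.994), which had 0 reads in replicate 2 of both genotypes, where Dleu2 was low.

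AI506816 was closest to RP23-369P21.2 (r = 0.996), which held 59, 29 and 56 BALB/c reads and no SKG read. Gm14586 (r = 0.993; 53, 48 and 61 reads against 33, 30 and 28) and Gm10221 (r = 0.991; 37, 31 and 43 against 19, 18 and 18) followed. In all 3 genes each BALB/c library was above each SKG library, the direction by which AI506816 was chosen, and the correlations are not independent of that choice. The symbol RP23-369P21.2 had no position in GENCODE M21, so that its distance from AI506816 is not known.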

How the data were processed

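The file used holds raw read counts per gene, deposited by the authors for 6 libraries. Per the labels and the study's methods, 50-nt single-end reads were aligned to GRCm38 with HISAT2 2.1.0 without strand and counted with featureCounts (Subread 1.4.4) after a mapping-quality filter. The labels give 18 preamplification cycles with SMART-Seq v4 for about 1000 cells, and the study's methods name another kit. Reads carried no molecular identifiers, so that counting intervals cover counting error only. A second deposited table holds the authors' own fold changes and p-values from DESeq2 1.14.1 and was not used.

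Genotypes were taken from the labels. Counts were scaled by TMM and tested with the edgeR 4.0.16 quasi-likelihood test (R 4.3.3) over the 12312 genes kept by filterByExpr (minimum count 10), with Benjamini-Hochberg adjustment, and genes were called past a fold change of 1.5 with a false discovery rate under 0.1. Alternatives were DESeq2 1.42.0, limma-voom (limma 3.58.1), other scalings and filters, a replicate block, and leaving out each library. CPM used the TMM-scaled library size, marker sums the plain library size, and log2 CPM a prior count of 2. The code was tested on simulated data, and the power of the edgeR test at the spread of these libraries is not given here. That spread was wide, with a common biological coefficient of variation of 91.8% in the edgeR fit. Coordinates and lengths came from GENCODE M21, and 46361 of 48397 symbols matched 1 gene; sequences came from RefSeq. The labels say the samples of a genotype are independent.

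The members and lists were chosen with earlier results of these data known. Besides the 7 genes, the text names from each list of related genes the 2 tested genes with the highest mean CPM, the other snoRNA hosts and long non-coding RNAs without overlap between genotypes, the genes most correlated with each member (3 for AI506816, 1 for the others), and the nearest tested gene on each side of AI506816. Marker lists are given as sums, with the markers at 0 or carrying a sum named, and genes whose bodies overlap a member are named for their position. Other genes outside this rule are said to be. The values of 1 gene that the rule would name are not reported here. Equal replicate numbers were not shown to pair libraries. The correlations of their deviations were -0.09, -0.01 and -0.15 by title, and -0.038 and 0.003 by the library number in the labels. With 3 libraries per genotype these values cannot exclude a pairing.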

Additional observations from a re-analysis of the deposited data

How the results depend on the processing

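The count of called genes, 0 by edgeR, became 370 with DESeq2 without shrinkage, 231 with shrunken fold changes and 2 without the filter on low counts. It was 0 with limma-voom, other scalings, the stricter filter, the replicate block and each library left out (range 0 to 0). AI506816 had log2 fold changes of -8.23 to -7.60 with 1 library left out, and -6.68 with DESeq2 shrinkage. Both DESeq2 fits called AI506816, which edgeR did not. The gene was chosen on this contrast, so that these calls are not a test of it. The other 6 genes were called under no alternative. Of 105 member fold changes under alternatives, 8 changed sign. Neat1 came to -0.0709 with limma-voom and to -0.0193 with the replicate block by title number. Dleu2 came to 0.0029 with that replicate block. With 1 library left out Neat1 ranged from -0.81 (without SKG replicate 2) to 0.55, and was -0.23 without BALB/c replicate 1. Snhg1 ranged from -0.11 (without BALB/c replicate 1) to 0.20. Dleu2 ranged from -0.62 to 0.50 (without BALB/c replicate 1), and was 0.26 without SKG replicate 2. The replicate block changed no call, and the numbers were not shown to pair libraries. With the longest transcript as length, 9 of 14 levels per kb moved by more than their SD. The median of all genes shifted from -0.02 to 0.12 with DESeq2 without shrinkage, which tested another set of genes. The cause of these changes was not tested.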
